A study of Mus musculus with 5 samples.

Results

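The stretch of mouse chromosome 5 from 29360001 to 29740000 (mm10) lies beside the domain of the Sonic hedgehog gene Shh and holds the genes Nom1, Mnx1 and Ube3c. Its chromatin contacts were read from 6 capture Hi-C maps, in which ligated pairs of DNA fragments from a chosen part of the genome are enriched before sequencing. Members were all pairs of 5 kb bins inside this 380 kb domain that lay 50 kb or more apart. They number 2211 of the 150426 bin pairs at 50 kb or more in the captured region, which runs from 27480001 to 30270000. The limits of the domain and an inner border bin at 29570001 had been selected on measured values of the wild-type map, so the wild-type values that define them are a description. The border bin divides the domain into a left part of 210 kb (528 bin pairs) and a right part of 165 kb (276 bin pairs). A further 1350 pairs join the left part to the right part, and 57 pairs include the border bin itself.

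All maps came from limb buds of mouse embryos at E10.5. The mutant genotypes were homozygous for intraTAD2, intraTAD3, intraTAD2-i4CTCF, intraTAD2-2xBorCTCF or intraTAD2-1xBorCTCF, each with 1 library, and the last 3 are called i4CTCF, 2xBorCTCF and 1xBorCTCF here. Embryos of intraTAD2, intraTAD3 and i4CTCF came from mating, and those of 2xBorCTCF and 1xBorCTCF from tetraploid aggregation, a way to grow embryos from embryonic stem cells inside tetraploid hosts. What each allele changes, and whether embryos were pooled, is not given in the sources used here. By name, the last 3 genotypes carry intraTAD2 as well, so intraTAD2 was used as another reference. No sample of the series is tied to the wild-type map, which is therefore the authors' value, and in each ratio to wild type the genotype and the origin of the library cannot be told apart. In ratios of 2xBorCTCF or 1xBorCTCF to intraTAD2, genotype and embryo source cannot be told apart either.

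Topologically associating domains are stretches of chromatin whose parts meet each other more often than they meet their surroundings. Many of their borders are occupied by the DNA-binding protein CTCF, which halts the cohesin complex as it extrudes loops, and pairs of such sites often show as a focal contact at the corner of a domain. Borders inside a domain can be weaker, so that contacts cross them. Shh patterns the limb, and its distant limb enhancer lies in an intron of Lmbr1, whose 5′ end reaches into the domain described here.

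The genes were placed with RefSeq annotation of GRCm38.p6. Lmbr1 (29229802 to 29378421, minus strand), a membrane protein gene, enters the left part with its 5′ end. Nom1 (29434659 to 29452169, plus strand) encodes a nucleolar protein, and Mnx1 (29473823 to 29478470, minus strand) encodes a homeobox transcription factor of motor neurons and pancreas. Ube3c (29569242 to 29676077, plus strand) encodes a ubiquitin ligase and starts 759 bases before the border bin, so that its body fills most of the right part. Dnajb6 (29735898 to 29786478, plus strand), a chaperone gene, starts in the last bin of the domain. The lncRNA genes Gm36086 and Gm42245 lie near either end.

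The promoters below, from RefSeq (GRCm38.p6), are shown because their bins are named with the contact values that follow. That of Ube3c adjoins the border, that of Mnx1 lies in the bin of the left part whose contact across the border was lowest in most maps, that of Gm36086 lies in the left anchor of the strongest contact, and that of Dnajb6 lies in the bin at the end of the domain. Each runs from 250 bases before to 50 bases after the gene's start, 5′ to 3′ on the gene's own strand, and capitals mark matches to AGGNGGC on either strand, a core like that of CTCF motifs.
Ube3c, chr5:29568992-29569291, plus strand: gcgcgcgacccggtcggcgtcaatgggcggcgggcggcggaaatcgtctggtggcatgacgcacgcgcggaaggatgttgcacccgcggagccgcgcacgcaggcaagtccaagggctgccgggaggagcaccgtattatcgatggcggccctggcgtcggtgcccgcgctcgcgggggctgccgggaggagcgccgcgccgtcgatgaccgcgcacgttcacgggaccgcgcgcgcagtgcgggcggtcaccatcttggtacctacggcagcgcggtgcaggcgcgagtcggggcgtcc
Mnx1, chr5:29478421-29478720, minus strand: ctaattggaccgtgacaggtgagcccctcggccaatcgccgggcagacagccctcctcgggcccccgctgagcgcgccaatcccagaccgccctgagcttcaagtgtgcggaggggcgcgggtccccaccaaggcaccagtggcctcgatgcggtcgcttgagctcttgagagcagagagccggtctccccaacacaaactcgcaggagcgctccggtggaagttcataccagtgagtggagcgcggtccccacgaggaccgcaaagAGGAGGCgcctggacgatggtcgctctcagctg
Gm36086, chr5:29388253-29388552, minus strand: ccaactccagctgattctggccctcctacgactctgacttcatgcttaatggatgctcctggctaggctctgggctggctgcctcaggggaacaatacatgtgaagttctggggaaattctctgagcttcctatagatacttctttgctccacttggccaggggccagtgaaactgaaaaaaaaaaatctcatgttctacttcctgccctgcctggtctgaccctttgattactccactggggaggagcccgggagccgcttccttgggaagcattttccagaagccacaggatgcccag
Dnajb6, chr5:29735648-29735947, plus strand: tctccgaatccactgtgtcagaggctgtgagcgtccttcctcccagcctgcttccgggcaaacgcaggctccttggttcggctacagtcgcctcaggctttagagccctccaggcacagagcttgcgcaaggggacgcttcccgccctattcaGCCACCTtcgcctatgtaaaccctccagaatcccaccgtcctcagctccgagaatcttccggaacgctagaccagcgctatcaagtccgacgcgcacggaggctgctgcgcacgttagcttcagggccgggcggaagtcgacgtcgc
The Ube3c promoter holds 53 CpG and is 74% GC, against medians of 7 CpG and 52.7% GC over 32851 promoters. The Mnx1 promoter holds 26 CpG and the Gm36086 promoter 3. Those of Mnx1 and Dnajb6 each hold 1 match to the searched letters, which occur in 29.4% of all promoters, and those of Ube3c and Gm36086 hold none. A match describes the letters of these windows only.

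The balanced values were turned back into whole contacts, which numbered 1121373 (2xBorCTCF) to 2942790 (intraTAD2) per map. Pairs of the domain held 46690 contacts in wild type, 90645 in intraTAD2, 58834 in 1xBorCTCF, 32484 in 2xBorCTCF, 33870 in i4CTCF and 84573 in intraTAD3. The median pair held 12 (2xBorCTCF) to 36 (intraTAD2) contacts. Contact is given throughout as the balanced value divided by the mean of all pairs at the same distance in the same map, so that 1 is the average for that distance. With 1 library per genotype no test was possible. The 95% intervals describe counting error and no variation among embryos, and "higher" or "lower" below means that the interval of the log2 ratio leaves out 0. None of these words is a statement about the genotype beyond its single library.

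The mean contact over all pairs inside the domain was above the average for their distance in every map. Pairs that cross the inner border, which also lie farther apart, had a higher mean than pairs within the left or the right part. Mean contact over the whole domain was 1.21 in wild type, 1.21 in intraTAD2, 1.24 in 1xBorCTCF, 1.27 in 2xBorCTCF, 1.23 in i4CTCF and 1.24 in intraTAD3. Within the left part it was 1.07, 1.04, 1.06, 1.07, 1.08 and 1.06 in the same order, and within the right part 1.05, 1.05, 1.06, 1.06, 1.04 and 1.02. Between the parts it was 1.30 in wild type, 1.31 in intraTAD2, 1.34 in 1xBorCTCF, 1.39 in 2xBorCTCF, 1.33 in i4CTCF and 1.34 in intraTAD3. In each of the 6 maps the lower bound between the parts lay above the upper bounds of both values within. The pairs of the border bin itself had 1.23 (wild type) to 1.35 (i4CTCF). The maps spread more between the parts, where wild type was lowest and 2xBorCTCF highest, than within either part. Over the whole domain, 2xBorCTCF (log2 ratio 0.072, 0.045 to 0.099) and 1xBorCTCF (0.033, 0.0099 to 0.055) were higher than wild type. So were intraTAD3 (0.030, 0.0093 to 0.052) and i4CTCF (0.029, 0.0025 to 0.055), and the interval of intraTAD2 included 0 (0.00038, -0.020 to 0.021). The domain was selected on the wild-type map, so these ratios are a description.

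**Figure D1:**
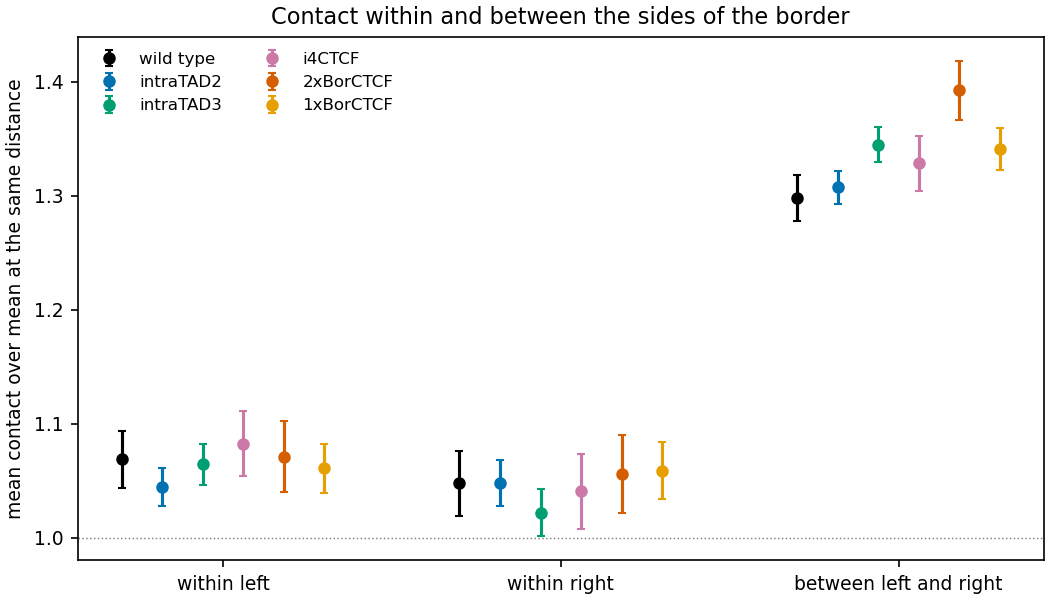
Mean distance-normalised contact (vertical axis, 1 is the map's average at the same distance) within the left part, within the right part and between them, for the 6 maps. Points are means over bin pairs and bars are 95% intervals of counting error; the values between the parts (1.30 to 1.39) all lie above those within (1.02 to 1.08).

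Set against wild type, contact within the left part differed by no more than counting error in all 5 mutant maps, with log2 ratios of -0.033 (intraTAD2) to 0.018 (i4CTCF). The same held within the right part, with ratios of -0.036 (intraTAD3) to 0.015 (1xBorCTCF). The lowest bound of these 10 intervals was -0.085 (intraTAD3, right part) and the highest 0.072 (2xBorCTCF, right part). Without the bin of the Dnajb6 5′ end, the right-part ratio of 1xBorCTCF left out 0 (0.057, 0.0063 to 0.11). The intervals of the other mutant maps included 0, with 2xBorCTCF at 0.059 (-0.0012 to 0.12). Between the parts, contact was higher than in wild type in 2xBorCTCF by 0.10 on the log2 scale (95% interval 0.066 to 0.14), in intraTAD3 by 0.051 (0.023 to 0.079) and in 1xBorCTCF by 0.047 (0.017 to 0.077). The intervals of i4CTCF (0.033, -0.00085 to 0.068) and intraTAD2 (0.010, -0.017 to 0.038) included 0. That of i4CTCF left out 0 in 4 alternatives, with expected contact from outside the domain (0.036), without distance normalisation (0.034), with recovered contacts (0.069) and without the bin of the Dnajb6 5′ end (0.045). The border bin was selected on the wild-type map, so contact across it may be lowered there by the selection. The ratios to wild type between the parts are therefore a description. Against the median of the other 5 maps in place of wild type, the ratio between the parts was -0.036 in intraTAD2, 0.013 in 1xBorCTCF, 0.068 in 2xBorCTCF, -0.013 in i4CTCF and 0.018 in intraTAD3.

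Against intraTAD2, which is also a mutant library, contact between the parts was higher in 2xBorCTCF (0.091, 0.060 to 0.12), intraTAD3 (0.041, 0.018 to 0.064) and 1xBorCTCF (0.036, 0.011 to 0.062), and not beyond counting error in i4CTCF (0.023, -0.0073 to 0.054). The interval of the ratio of 2xBorCTCF to 1xBorCTCF also left out 0 (0.055, 0.021 to 0.088), but with recovered contacts in place of balanced values the ratio was 0.020 (-0.0078 to 0.048). With recovered contacts, which keep each bin's coverage, the ratios to wild type within the right part were 0.054 to 0.14 with intervals above 0 in all but intraTAD3 (0.022), and that of 1xBorCTCF within the left part was 0.077 (0.042 to 0.11). These comparisons share the wild-type or the intraTAD2 map, and in those of 2xBorCTCF and 1xBorCTCF with intraTAD2 the embryo source differs as well. Within the left part i4CTCF was higher than intraTAD2 (0.051, 0.0067 to 0.10), but the interval included 0 with pairs 25 kb or more apart (0.026, -0.0094 to 0.062) and without the 1 percent highest pairs (0.041, -0.0031 to 0.085). No other ratio within the left or the right part, among these 5 comparisons of mutant maps, left out 0.

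Mean contact over all pairs of the domain rose with distance in each map. Pairs of the domain 50 to under 100 kb apart had a mean contact of 0.988 (wild type) to 1.02 (2xBorCTCF), pairs 100 to under 200 kb apart 1.14 (wild type and intraTAD2) to 1.18 (2xBorCTCF), and pairs 200 kb or more apart 1.51 (wild type and intraTAD2) to 1.64 (2xBorCTCF). Of the 666 pairs in the last class, 660 cross the border. At 200 kb or more, contact between the parts was higher than in wild type in 2xBorCTCF (0.12, 0.071 to 0.17) and intraTAD3 (0.062, 0.021 to 0.10). At 100 to under 200 kb it was higher in 2xBorCTCF (0.080, 0.028 to 0.13) and 1xBorCTCF (0.072, 0.027 to 0.12). At 50 to under 100 kb it was higher in i4CTCF alone of the 5 (1.01 against 0.936, log2 ratio 0.12, 0.030 to 0.20). As the border bin was selected on the wild-type map, these ratios between the parts are a description. Within the left part, pairs 100 to under 200 kb apart had less contact in intraTAD2 than in wild type (1.12 against 1.20, -0.094, -0.16 to -0.027). At 50 to under 100 kb within the left part, intraTAD3 (0.994 against 0.951, 0.064, 0.019 to 0.11) and 2xBorCTCF (0.995, 0.066, 0.0079 to 0.12) were higher than wild type. In wild type, pairs 100 to under 200 kb apart had 1.20 within the left part, 1.14 between the parts and 1.01 within the right part. At the lower limit of distance, pairs 50 kb apart had a mean contact of 0.946 (intraTAD2) to 1.01 (2xBorCTCF), and pairs 45 kb apart, just outside it, 0.972 (i4CTCF) to 1.06 (2xBorCTCF).

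The strength of the inner border was taken as the log2 ratio of the mean of both within values to the value between. It was below 0 in all maps, at -0.29 in wild type (-0.33 to -0.26), -0.32 in intraTAD2, -0.34 in 1xBorCTCF, -0.39 in 2xBorCTCF (-0.43 to -0.35), -0.32 in i4CTCF and -0.37 in intraTAD3. Pairs between the parts were on average 197 kb apart, those within the left part 102 kb and those within the right part 86.7 kb. When only distances present on both sides of the comparison were used and weighted alike, the sign turned. The ratio was then 0.10 in wild type (0.055 to 0.15), 0.064 in i4CTCF (0.010 to 0.12) and 0.049 in intraTAD2 (0.016 to 0.082). In intraTAD3 (0.027), 2xBorCTCF (0.025) and 1xBorCTCF (0.0073) the interval included 0. Averaged over both sides and the shared distances, pairs on 1 side of the border thus met slightly more often than pairs across it in wild type, i4CTCF and intraTAD2. The order was not the same on each side and at each distance. At 100 to under 200 kb, intraTAD2 had 1.16 between the parts, 1.12 within the left part and 1.03 within the right part. This matched measure was added after the first values had been seen, and the wild-type value is a description, since the border bin was selected on that map.

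The position of the border was read from an insulation value, the log2 mean contact across a bin in a 100 kb square relative to all bins of the captured region. Bins 100 kb or more from either end of the domain were searched, since values fall towards both ends. Among them the lowest was the border bin at 29570001, which lies inside Ube3c just behind its promoter, in all 6 maps. Its value was -0.074 in wild type (-0.11 to -0.038), -0.040 in intraTAD2 (-0.065 to -0.016), 0.021 in 1xBorCTCF, 0.050 in 2xBorCTCF (0.0073 to 0.093), -0.012 in i4CTCF and -0.013 in intraTAD3. With this square wild type, on whose map the bin had been selected, was lowest and 2xBorCTCF highest, and their intervals did not overlap. With a 50 kb square 1xBorCTCF was lowest at this bin (-0.17) and i4CTCF highest (-0.085), and the intervals of wild type (-0.23 to -0.10) and 2xBorCTCF (-0.18 to -0.029) overlapped. The minimum is shallow beside the start of the domain, where the value reached -0.84 (wild type) to -0.97 (2xBorCTCF), and the end, where it reached -0.28 (wild type) to -0.38 (intraTAD3). With a 50 kb square the minimum lay at 29565001, the bin of the Ube3c promoter, in wild type, intraTAD2 and intraTAD3 and at 29570001 in the other 3, with -0.18 (wild type) to -0.085 (i4CTCF). With a 150 kb square the lowest bin was the last of the searched bins in all maps, so that no position of a border can be read from it.

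**Figure D2:**
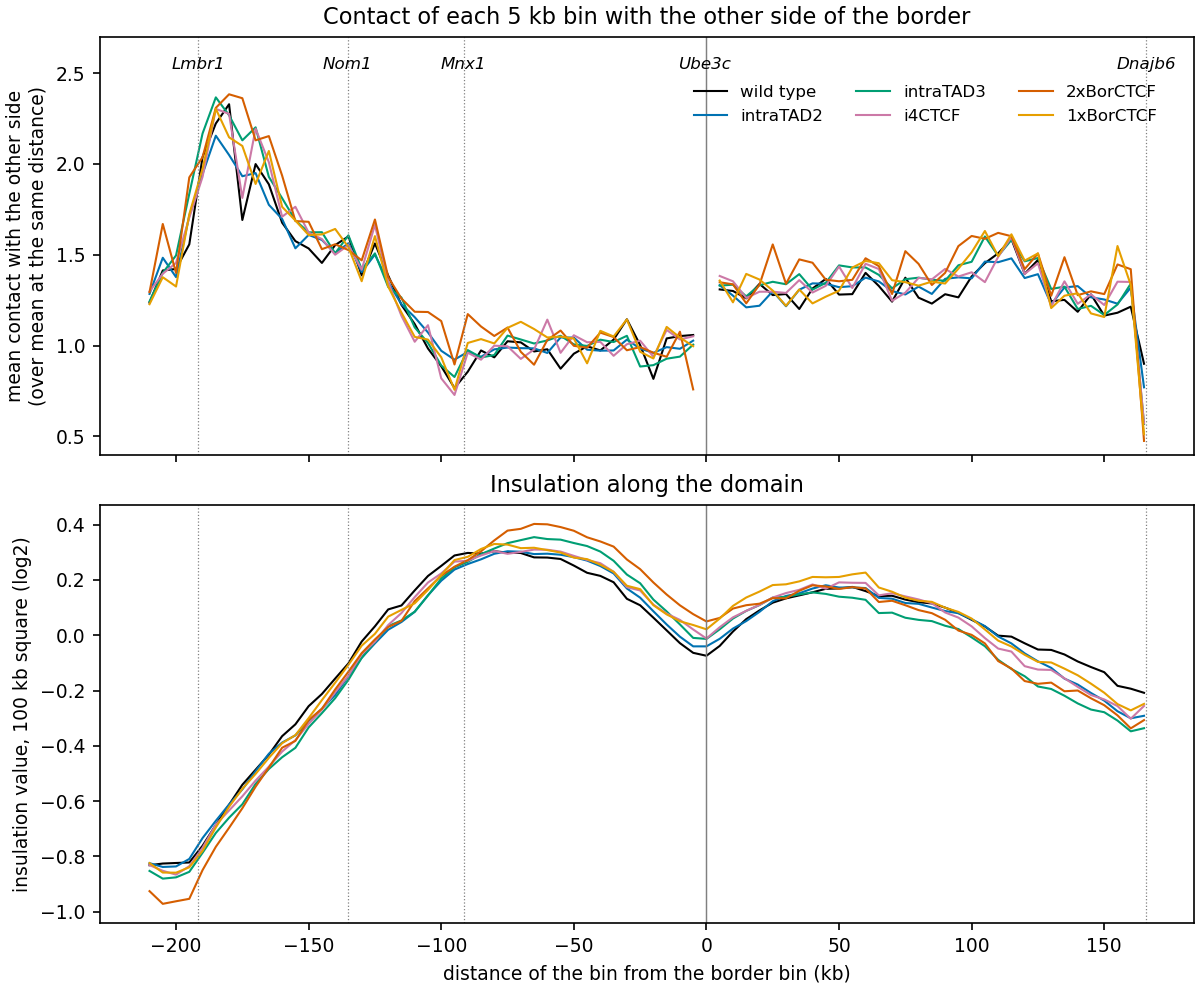
Upper panel, mean contact of each 5 kb bin with all bins of the other side of the border at 50 kb or more (vertical axis, 1 is the average for the distance) by distance from the border bin in kb; dotted lines mark 5′ ends of genes. Lower panel, insulation value with a 100 kb square on the log2 scale; each line is 1 map, and all 6 dip at the border bin, to between -0.074 and 0.050.

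Contact across the border was unevenly spread along the left part. It was highest just inside the domain, at the bins 29385001 and 29390001 that hold and follow Gm36086, where the contact of the highest bin with the right part was 2.33 in wild type, 2.16 in intraTAD2, 2.30 in 1xBorCTCF, 2.38 in 2xBorCTCF, 2.30 in i4CTCF and 2.37 in intraTAD3. It fell along Nom1 towards Mnx1. The bin of Mnx1 (29475001) had the lowest value of the 42 left bins in 5 maps, at 0.767 in wild type, 0.923 in intraTAD2, 0.757 in 1xBorCTCF, 0.728 in i4CTCF and 0.827 in intraTAD3. In 2xBorCTCF the lowest was the Ube3c promoter bin, 29565001, at 0.759.

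The left part was then divided in front of the Mnx1 bin, at 29470000, a division chosen after these profiles had been seen, so its values are a description. Bins before it, the stretch of Lmbr1, Gm36086 and Nom1, met the right part with a mean contact of 1.58 in wild type, 1.59 in intraTAD2, 1.62 in 1xBorCTCF, 1.72 in 2xBorCTCF, 1.63 in i4CTCF and 1.66 in intraTAD3. Bins from Mnx1 to the border met it with 0.965, 0.984, 1.02, 1.02, 0.979 and 0.977 in the same order. Over shared distances of 110 to 265 kb the first stretch had 1.58-fold the contact of the second in wild type, 1.54-fold in intraTAD2, 1.52-fold in 1xBorCTCF, 1.58-fold in 2xBorCTCF, 1.65-fold in i4CTCF and 1.65-fold in intraTAD3. With the division 20 kb earlier the log2 ratio of the first to the second stretch, over all distances, was 0.71 to 0.81, and with the division 20 kb later 0.53 to 0.69, so these values fix no place at which contact changed. Contact of the first stretch with the right part was higher than in wild type in 2xBorCTCF (0.12, 0.070 to 0.16) and intraTAD3 (0.068, 0.032 to 0.10). Contact of the second was higher in 1xBorCTCF (0.081, 0.036 to 0.13) and 2xBorCTCF (0.075, 0.022 to 0.13). Both sets of ratios cross the border bin selected on the wild-type map and are a description. Between the 2 stretches, contact was lower than in wild type in intraTAD2 (1.08 against 1.13, -0.062, -0.11 to -0.014) and intraTAD3 (1.09, -0.056, -0.11 to -0.0059).

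**Figure D3:**
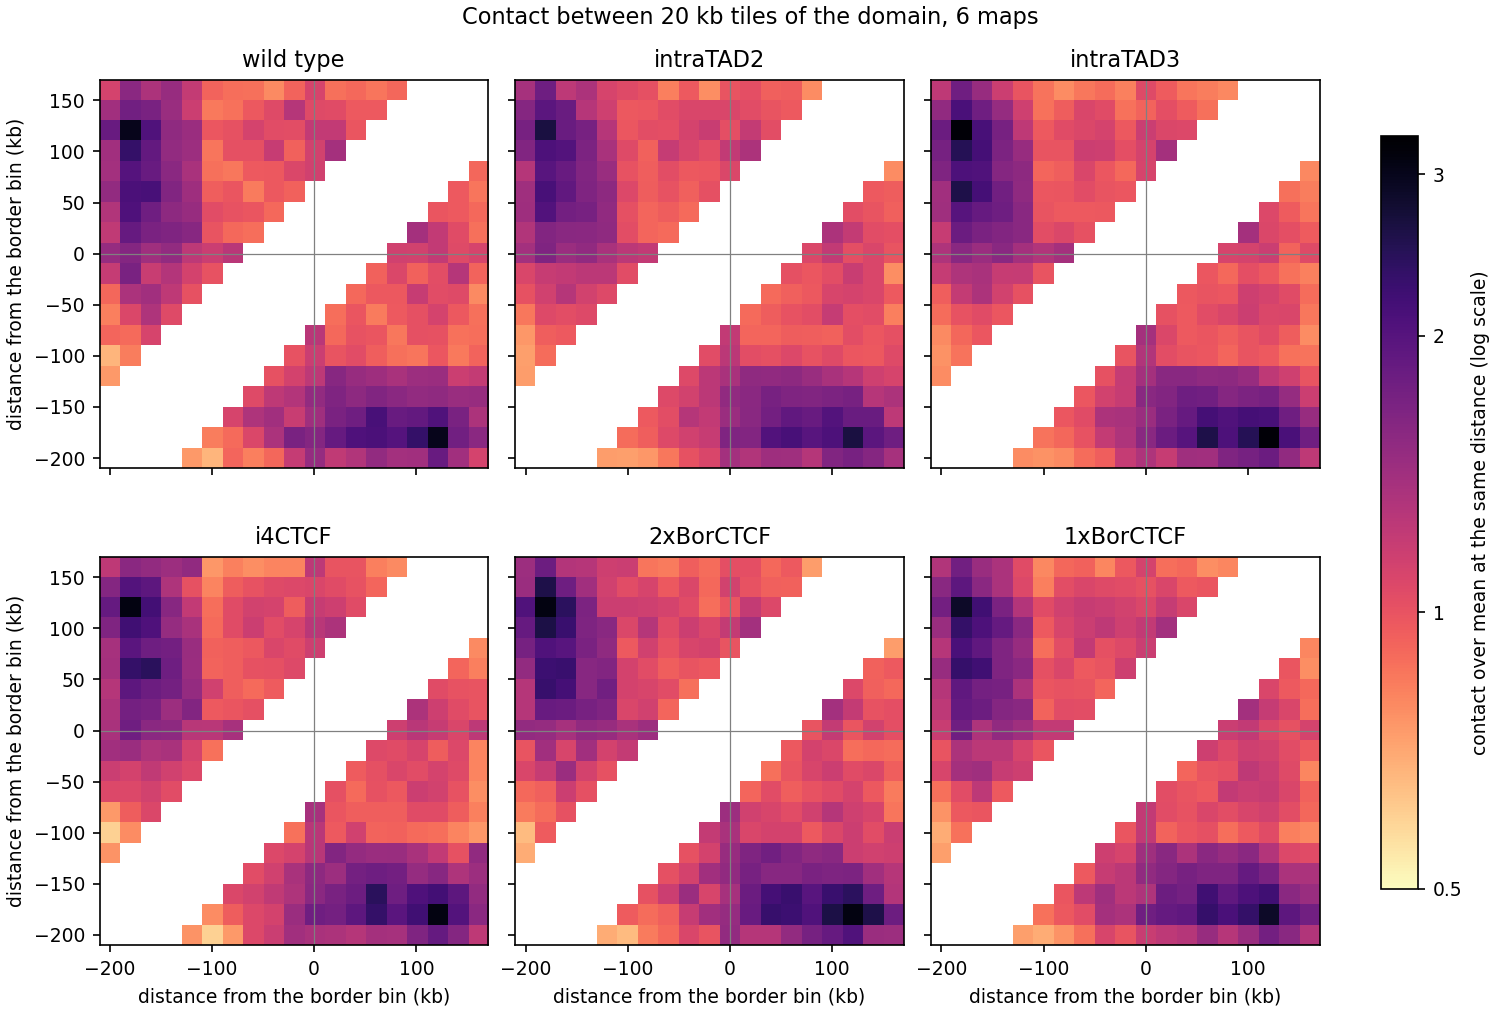
Mean distance-normalised contact between 20 kb tiles of the domain in 6 maps (colour, log scale), with both axes in kb from the border bin and grey lines at the border. White cells are tile pairs left out because some of their bin pairs lie under 50 kb apart. The darkest cell in every map joins the tile at -190 kb to the tile at 110 kb, with 2.63 (intraTAD2) to 3.20 (intraTAD3).

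The domain had 1 strongest contact, between stretches that lie inside its ends. The 120 pairs of 20 kb tiles were those with all bin pairs 50 kb or more apart. Among them, the pair of 29380001 to 29400000 with 29680001 to 29700000 ranked first in all 6 maps. It was selected as the highest in wild type, where its contact was 2.99, and it reached 2.63 in intraTAD2, 2.85 in 1xBorCTCF, 3.10 in 2xBorCTCF, 3.09 in i4CTCF and 3.20 in intraTAD3. The first tile holds Gm36086, whose promoter is printed above, and the second contains Gm42245, which lies behind the 3′ end of Ube3c. The outermost tiles of the domain, 29360001 to 29380000 and 29720001 to 29740000, met each other with 1.11 (wild type) to 1.44 (2xBorCTCF). The 4 tile pairs that followed in wild type joined the tile of Gm36086, or the tile after it, to tiles in the body of Ube3c, at 2.06 to 2.33. These 4 ranked between 2 and 10 in the mutant maps.

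Inside that tile pair, the highest 15 kb windows of the wild-type map were 29380001 to 29395000 and 29680001 to 29695000, 300 kb apart. The first window contains Gm36086 and begins 1.58 kb beyond the 5′ end of Lmbr1, and the second overlaps Gm42245 and begins 3.92 kb beyond the 3′ end of Ube3c. Contact between them was 3.42 in wild type (417 contacts), 2.87 in intraTAD2 (700), 3.01 in 1xBorCTCF (458), 3.51 in 2xBorCTCF (307), 3.57 in i4CTCF (292) and 3.56 in intraTAD3 (811). The map's own highest windows were the same in wild type, intraTAD3, i4CTCF and 2xBorCTCF, and lay 1 bin off on the right side in intraTAD2 and 1xBorCTCF. Surrounding pairs in a 45 kb window had 2.01, 1.94, 2.06, 2.35, 2.08 and 2.19, so the focal value exceeded them by 0.77 in wild type, 0.56 in intraTAD2, 0.55 in 1xBorCTCF, 0.58 in 2xBorCTCF, 0.78 in i4CTCF and 0.70 in intraTAD3 on the log2 scale. The interval of this excess lay above 0 in each mutant map. It did so in wild type as well, but the windows were selected as the highest of that map. The wild-type excess is therefore a description.

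**Figure D4:**
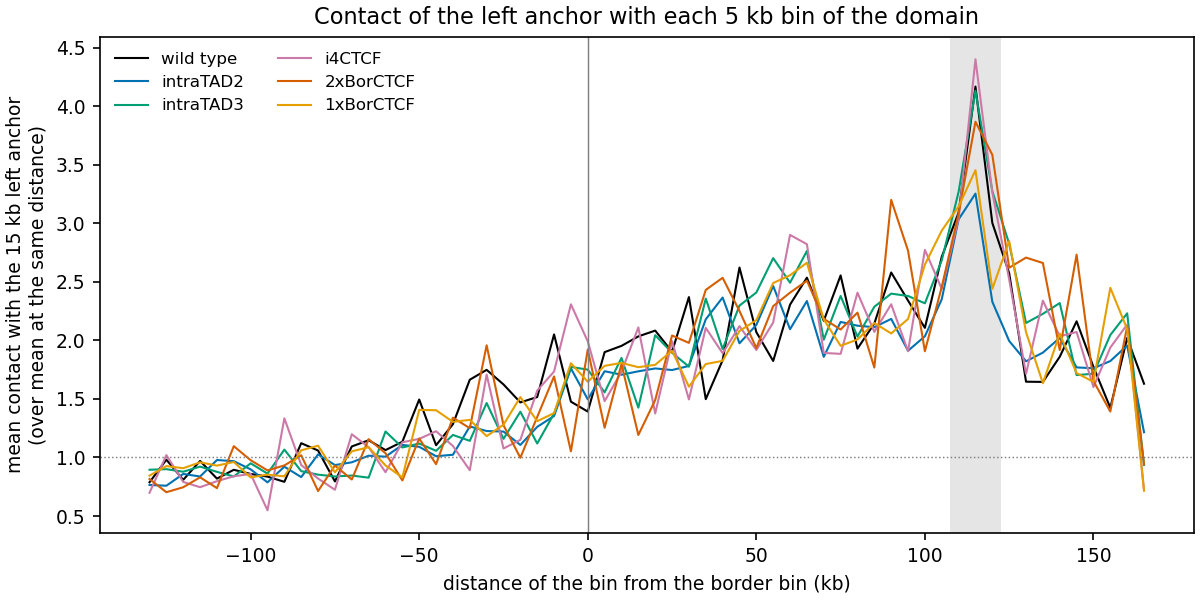
Mean contact of the 15 kb left anchor (the window of Gm36086) with each 5 kb bin of the domain at 50 kb or more (vertical axis, 1 is the average for the distance) by distance from the border bin in kb. Each line is 1 map and the grey band is the right anchor, whose mean lies between 2.87 (intraTAD2) and 3.57 (i4CTCF).

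The value was lowest in intraTAD2 and next lowest in 1xBorCTCF, whose ratio to wild type included 0 (-0.18, -0.39 to 0.026) and whose own highest windows had 3.18. Because the windows were the highest of the wild-type map, its value is raised by the selection, and the ratio of intraTAD2 to wild type (-0.25, -0.44 to -0.065) is given as a description. Between mutant maps, which the selection did not use, contact was higher than in intraTAD2 in intraTAD3 (0.31, 0.16 to 0.46), i4CTCF (0.31, 0.10 to 0.52) and 2xBorCTCF (0.29, 0.079 to 0.50). With windows of 25 kb the interval of i4CTCF included 0 (0.14, -0.041 to 0.33). It did not differ beyond counting error in 1xBorCTCF (0.069, -0.12 to 0.25). The interval of 2xBorCTCF over 1xBorCTCF included 0 (0.22, -0.0090 to 0.45). In 2xBorCTCF and intraTAD3 the surrounding pairs were higher than in intraTAD2 as well, by 0.28 (0.14 to 0.41) and 0.17 (0.072 to 0.28), whereas in i4CTCF their interval included 0 (0.10, -0.036 to 0.24).

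The share of tile pairs that differed between maps was lower in the domain than among tile pairs of the same range of distances across the captured region. A change was counted at a log2 ratio of 0.32 or more in either direction, with 10 or more contacts in each map. Against wild type, 2 of 120 tile pairs changed in intraTAD2 against a background of 11.2%, 4 in intraTAD3 against 14%, 3 in i4CTCF against 17.6%, 10 in 2xBorCTCF against 20.6%, and 3 in 1xBorCTCF against 14.3%. Against intraTAD2, 2 changed in intraTAD3 against 7.08%, 5 in i4CTCF against 13.4%, 5 in 2xBorCTCF against 14.9% and 2 in 1xBorCTCF against 11.8%. For 2xBorCTCF over 1xBorCTCF, 8 changed against 16.5%. The domain's own shares were 1.67% to 8.33%, below the background in each of the 10 comparisons. Weighted to the distances of the domain's pairs, the background was 5.23% to 16.8%, still above the domain in each comparison. Depth moved with this result, since the median tile pair of the domain held 200 to 521 contacts in the shallower map of a comparison and that of the region 113 to 296. Its part in the result was not tested.

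Of the 10 tile pairs past the fold in 2xBorCTCF against wild type, 9 were higher and 1 lower. The highest joined the tile of Gm36086 to 29700001 to 29720000, just beyond the right anchor, with 2.57 against 1.76 (0.55, 0.27 to 0.83). The lowest joined 29540001 to 29560000, which holds no gene, to 29700001 to 29720000, with 0.904 against 1.29 (-0.52, -1.03 to -0.0021), and the same pair was the lowest in intraTAD3 (0.872, -0.57, -0.94 to -0.19). In intraTAD2 the lowest joined the tile of Gm36086 to 29540001 to 29560000 (1.19 against 1.69, -0.51, -0.81 to -0.21). Each of these ratios has the single wild-type map as its reference. Within 29540001 to 29560000, the first bin had few contacts with the right part, 117 in wild type and 73 in 2xBorCTCF. The bin after it had 513 and 406. The part of coverage in these ratios was not tested. In i4CTCF the highest joined the 5′ end of Lmbr1 to 29500001 to 29520000 (1.07 against 0.827, 0.37, 0.064 to 0.68). In 1xBorCTCF the highest joined 29500001 to 29520000 to the body of Ube3c (1.21 against 0.966, 0.33, 0.12 to 0.53), and the lowest joined Lmbr1 to the tile of the border (1.18 against 1.48, -0.33, -0.64 to -0.026).

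Between mutant maps, the highest pair of intraTAD3 over intraTAD2 joined the 5′ end of Lmbr1 to the body of Ube3c (1.65 against 1.29, 0.35, 0.14 to 0.56). The highest of 2xBorCTCF over intraTAD2 joined 29480001 to 29500000 to the 3′ end of Ube3c (1.29 against 0.933, 0.47, 0.21 to 0.73). The first of these tiles lies beyond the 5′ end of Mnx1 and holds the gene Gm24538. The other named pairs all included the last tile of the domain, with the Dnajb6 bin. With that tile, Mnx1 had 1.06 in intraTAD2, 1.17 in 2xBorCTCF, 0.799 in 1xBorCTCF and 0.750 in i4CTCF, so that i4CTCF and 1xBorCTCF were the lowest against intraTAD2 there (-0.49 and -0.40). The ratio of 2xBorCTCF to 1xBorCTCF at this pair was 0.55 (0.14 to 0.96). Nom1 with the same tile had the highest ratio of i4CTCF to intraTAD2 (1.52 against 1.10, 0.46, 0.042 to 0.88), and 29480001 to 29500000 with it the lowest of intraTAD3 to intraTAD2 (0.789 against 1.02, -0.37, -0.65 to -0.085).

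Contacts between genes were read from windows of 15 kb around their 5′ ends. Ube3c, at the border, met the genes before it above the average in each map. Its contact with Nom1 was 1.59 in wild type, 1.63 in intraTAD2, 1.60 in 1xBorCTCF, 1.46 in 2xBorCTCF, 1.64 in i4CTCF and 1.71 in intraTAD3, and no ratio to wild type left out 0. With the bodies of both genes, contact was higher than in wild type in intraTAD3 (0.078), 1xBorCTCF (0.076) and 2xBorCTCF (0.10), and for 2xBorCTCF the sign turned from -0.12. With Lmbr1, at 190 kb, it was 1.67, 1.57, 1.38, 1.62, 1.65 and 1.61 in the same order, and no ratio to wild type left out 0. The body of Lmbr1 lies mostly before the domain, so its values include contacts that leave the domain. With the gene bodies, contact was lower than in wild type in 4 maps, with ratios of -0.099 (i4CTCF) to -0.085 (intraTAD3). The interval of 2xBorCTCF included 0 (-0.066). Contact of Ube3c with Mnx1 was 1.28 in wild type, 1.251 in intraTAD2, 1.33 in 1xBorCTCF, 1.53 in 2xBorCTCF, 1.38 in i4CTCF and 1.54 in intraTAD3. Here intraTAD3 was higher than wild type (0.27, 0.023 to 0.52) and intraTAD2 (0.30, 0.082 to 0.51), and 2xBorCTCF was higher than intraTAD2 (0.29, 0.017 to 0.56). With 25 kb windows both intervals of intraTAD3 included 0 (0.15 and 0.095). With the gene bodies the ratio of intraTAD3 to intraTAD2 was 0.013, and 2xBorCTCF was higher than wild type (0.28, 0.17 to 0.39).

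Lmbr1, Nom1 and Mnx1 met each other close to the average or below it. Contact of Lmbr1 with Mnx1 was 0.808 (wild type) to 0.965 (intraTAD3), and that of Lmbr1 with Nom1 was 0.834 (2xBorCTCF) to 1.06 (i4CTCF), where i4CTCF was higher than wild type (0.30, 0.054 to 0.55). With the gene bodies in place of the 5′ ends, that of Lmbr1 mostly outside the domain, this last ratio was -0.025. Nom1 and Mnx1 lie 45 kb apart, under the limit of 50 kb, and their contact of 0.875 (wild type) to 0.983 (2xBorCTCF) is given as a value only.

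**Figure D5:**
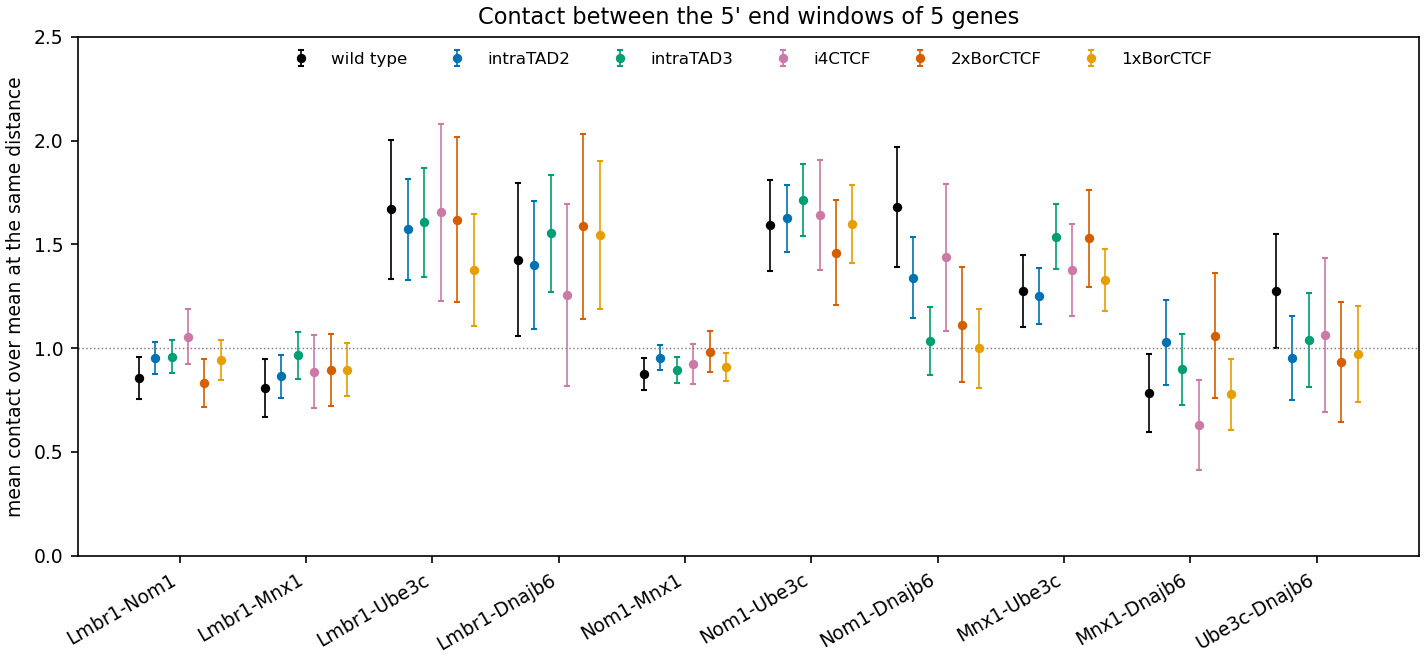
Mean distance-normalised contact (vertical axis) between 15 kb windows at the 5′ ends of 5 genes, for the 6 maps, with bars for 95% intervals of counting error. Pairs of Ube3c with Lmbr1, Nom1 and Mnx1 lie above 1 in every map, and Nom1-Dnajb6 lies at 1.68 in wild type and between 1.00 and 1.44 in the mutant maps.

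The largest difference from wild type among gene pairs was that between Nom1 and Dnajb6, 305 kb apart. Their contact was 1.68 in wild type, 1.34 in intraTAD2, 1.00 in 1xBorCTCF, 1.11 in 2xBorCTCF, 1.44 in i4CTCF and 1.04 in intraTAD3, so that wild type lay above each mutant map. Against wild type it was lower in 1xBorCTCF (-0.75, -1.12 to -0.38), intraTAD3 (-0.70, -1.04 to -0.36), 2xBorCTCF (-0.59, -1.03 to -0.16) and intraTAD2 (-0.33, -0.65 to -0.00091), and in i4CTCF the interval included 0 (-0.23, -0.66 to 0.21). It was also lower than in intraTAD2 in 1xBorCTCF (-0.42, -0.77 to -0.077) and intraTAD3 (-0.37, -0.68 to -0.062). This difference was not seen with the bodies of the genes in place of their 5′ ends, where all 5 intervals against wild type included 0 and the ratios were -0.055 (intraTAD3) to 0.071 (intraTAD2); the body of Dnajb6 runs beyond the domain. With 25 kb windows at the 5′ ends it was lower than wild type in intraTAD3 (-0.36) and 1xBorCTCF (-0.27) alone.

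The bin at 29735001, with the Dnajb6 promoter printed above, had few contacts. It held 40.7% of the contacts of a median bin in wild type and 15.2% in intraTAD2, 13.5% in 1xBorCTCF, 15.3% in 2xBorCTCF, 13.6% in i4CTCF and 16.9% in intraTAD3. Its contact with the left part was 0.900 in wild type, 0.771 in intraTAD2, 0.513 in 1xBorCTCF, 0.476 in 2xBorCTCF, 0.573 in i4CTCF and 0.569 in intraTAD3, the lowest of the 33 right bins in each map. Against wild type it was lower in 4 mutant maps, with log2 ratios of -0.92 (2xBorCTCF) to -0.65 (i4CTCF), and the interval of intraTAD2 included 0 (-0.22, -0.57 to 0.13). The coverage of the bin moved with these values, and its part in them was not tested. Without this bin, the Nom1-Dnajb6 ratio to wild type was -0.46 in 1xBorCTCF (-0.83 to -0.10) and -0.42 in intraTAD3 (-0.75 to -0.083), while the intervals of 2xBorCTCF (-0.29, -0.71 to 0.14) and intraTAD2 (-0.11, -0.43 to 0.21) included 0. The next bin, at 29740001 and just outside the domain, met the domain with 1.10 (intraTAD3) to 1.31 (2xBorCTCF).

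Other pairs of Dnajb6 spread widely at 46 to 179 contacts each. Its contact with Lmbr1, across nearly the whole domain, was 1.26 (i4CTCF) to 1.59 (2xBorCTCF), with Ube3c 0.935 (2xBorCTCF) to 1.28 (wild type), and with Mnx1 0.629 (i4CTCF) to 1.06 (2xBorCTCF). Among these, the only ratio with an interval that left out 0 was that of Mnx1 with Dnajb6 in i4CTCF against intraTAD2 (0.629 against 1.03, -0.71, -1.28 to -0.14).

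Windows of the same length elsewhere in the captured region were set beside the domain. They were laid end to end from its selected limits without regard to other borders, so its rank among them is a description. Of 6 adjoining windows of 380 kb, the domain ranked second in each map, behind the window from 29740001 to 30120000, which had 1.38 (1xBorCTCF) to 1.43 (intraTAD3). The lowest window, from 28220001 to 28600000, had 0.648 (intraTAD2) to 0.696 (i4CTCF and 1xBorCTCF) and contains the far border of the Shh domain. On the far side of the Shh domain, the equal window next to its border had 0.935 (intraTAD3) to 0.963 (2xBorCTCF), and its ratios to wild type all lay within counting error. Between mutant maps, intraTAD3 was lower there than intraTAD2 (-0.033, -0.051 to -0.016), and the other comparisons lay within counting error. At the distances of its own pairs, the domain met the stretch before it with a contact of 0.573 (2xBorCTCF) to 0.613 (wild type) and the stretch after it with 0.808 (intraTAD3) to 0.864 (1xBorCTCF). Both were below the 1.21 to 1.27 inside, and the edge towards Lmbr1 and Shh was the sharper in all 6 maps. For wild type this is a description, since the limits of the domain were selected on that map.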

How the data were processed

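Capture Hi-C maps of E10.5 mouse limb buds were used for 5 mutant libraries, 1 per genotype, and for a wild-type map. Formaldehyde fixation, a DpnII digest, ligation, sonication, SureSelect capture and paired-end sequencing are the steps per the labels' protocols. Bowtie2 2.2.6, mm9 and mm10 are listed without roles, per the submitters' processing notes. Duplicate removal and the caller of contacts are not given in the sources used here. The deposited unit is a contact signal for 2 bins of 5 kb, which the authors balanced map by map; the file names give a mapping quality of 30 and Knight-Ruiz balancing, which gives all bins equal sums. The wild-type column, 1 in number, belongs to no sample. Gene positions of mm10 were checked by shifting 3 gene pairs in 201 steps: their contact was highest at a shift of -5 kb, 1 bin, with a mean log2 value of 2.47 against at most 0.64 beyond 50 kb.

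A balanced value is the product of whole contacts and 1 factor for each of its bins. Both were recovered with 100% of values whole within 0.01 (6 values of intraTAD3 were not recovered), by a method checked on simulated maps. Bins with fewer than 25% of a map's median partners, 10 in all, were dropped from every map, 0 of them in the domain. Values were divided by the mean at the same distance in the same map. Means have 95% intervals from Poisson errors of the whole contacts, weighted by their balancing factors. PCR copies may remain among them, so the intervals cover counting error only. Depth sets their width: the domain held 32484 to 90645 contacts. Maps were compared as log2 ratios in 10 comparisons, with no test. Python 3.11.15, NumPy 2.4.6 and Matplotlib 3.10.9 were used.

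Listed genes were the protein-coding genes with a 5′ end in or next to the domain. Named tile pairs were the 5 highest in wild type and, per comparison, the highest and the lowest ratio past 1.25-fold with an interval that leaves out 0. Alternatives changed the expected contact, the scaling, the distances, the border bin, the windows and the tiles. Members, lists and rules were chosen with earlier results of these data known.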

Additional observations from a re-analysis of the deposited data

How the results depend on the processing

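No paired analysis was possible because each genotype has 1 library, and for the same reason no replicate could be left out. Of 255 ratios of the left, right and between parts under an alternative, 231 stayed inside the interval of the reported value and none that left out 0 changed sign. Of the 240 with an interval of their own, 3 came to include 0 and 25 to leave it out. Among 240 values of gene pairs these numbers were 14 and 31. With recovered contacts, ratios to wild type within the left part were 0.077 in 1xBorCTCF, and within the right part 0.054 in intraTAD2, 0.14 in 1xBorCTCF, 0.085 in 2xBorCTCF, 0.091 in i4CTCF and 0.022 in intraTAD3; between the parts they were 0.069 in i4CTCF and 0.096 in 1xBorCTCF. Against intraTAD2 they were 0.11 (left) and 0.085 (right) in 1xBorCTCF, and 0.068 in i4CTCF and 0.096 in 1xBorCTCF between the parts. For 2xBorCTCF over 1xBorCTCF they were -0.077 (left) and 0.020 (between). Border strength was then -0.39 in wild type, -0.38 in intraTAD2, -0.38 in 1xBorCTCF, -0.47 in 2xBorCTCF, -0.40 in i4CTCF and -0.43 in intraTAD3. Recovered contacts keep the coverage of each bin, which balancing removes.

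Without distance normalisation the left ratio of intraTAD3 to wild type was 0.040. At 100 kb or more the left ratios to wild type were -0.092 in intraTAD2, -0.069 in intraTAD3 and -0.054 in 2xBorCTCF, the left ratio of i4CTCF to intraTAD2 was 0.096 and the right ratio of 1xBorCTCF to intraTAD2 -0.045. Against the median of the other 5 maps the ratios between the parts were -0.036 in intraTAD2, 0.013 in 1xBorCTCF, 0.068 in 2xBorCTCF, -0.013 in i4CTCF and 0.018 in intraTAD3. At like distances, an alternative added after seeing the data, border strength turned to 0.10 in wild type, 0.049 in intraTAD2, 0.0073 in 1xBorCTCF, 0.025 in 2xBorCTCF, 0.064 in i4CTCF and 0.027 in intraTAD3. Insulation at the border bin (wild type, intraTAD2, 1xBorCTCF, 2xBorCTCF, i4CTCF, intraTAD3) was -0.17, -0.16, -0.17, -0.11, -0.085 and -0.10 with a 50 kb square and 0.17, 0.20, 0.23, 0.24, 0.18 and 0.20 with a 150 kb square. Past 1.5-fold, 0 tile pairs were counted in each of the 10 comparisons. With tiles 10 kb later, 1 was counted in 1xBorCTCF against wild type, and 2 in i4CTCF and 0 in 1xBorCTCF against intraTAD2. With gene bodies, the ratio to wild type was -0.025 for Lmbr1-Nom1 in i4CTCF and 0.071 for Nom1-Dnajb6 in intraTAD2. The cause of these shifts was not tested. The 20 alternative values of the focal contact stayed inside their intervals, though 2 came to include 0 and 2 to leave it out, and of 12 for the division at Mnx1, 4 did and none changed sign.

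Depth limits the values of Dnajb6: its gene pairs rest on 46 to 278 contacts and the contact of its bin with the left part on 38 to 194, and differences within their intervals were not detectable at this depth.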
